A study of Homo sapiens with 6 samples.

Results

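Histone-modifying enzymes and PHF genes were taken as the 72 measured genes, of 11963 in all, whose current symbol is KMT, KDM, KAT, HDAC, SIRT, PRDM, SETD or PHF followed by digits and at most 1 letter. They comprised 5 KMT, 7 SETD, 11 PRDM, 16 KDM, 7 KAT, 9 HDAC, 7 SIRT and 10 PHF genes. Their transcripts were measured on single-colour oligonucleotide arrays in MDA-MB-231, an established triple-negative breast cancer cell line grown in RPMI medium with serum. The dinaciclib group held 3 samples taken 12 h after the drug, named F, 4 and 5, and the baseline group held 3 samples taken at 0 h, named E, 4 and 5. Dinaciclib is a small-molecule inhibitor of several cyclin-dependent kinases, among them the transcriptional kinase CDK9. It was added in DMSO at a dose that the labels do not give. The labels do not say that baseline cells received DMSO, and there was no untreated sample at 12 h, so the drug cannot be told apart from solvent, handling or time in culture. Whether the samples of a group were grown as separate cultures is not stated, and the p-values reflect the spread among these samples alone, which may be technical. In such bulk RNA, fewer cells and less RNA per cell cannot be told apart.

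DNA in the nucleus is wound on histones, and enzymes add or remove small chemical groups on the histone tails. KMT and SETD enzymes, and some PRDM proteins, transfer methyl groups to lysines, KDM enzymes remove them, KAT enzymes add acetyl groups, and HDAC and SIRT enzymes take acyl groups off. PHF proteins carry plant homeodomain fingers, small zinc-binding folds of which many read the methylation state of the histone H3 tail. The families here are those of the symbols, and several members act mainly on other proteins.

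Transcripts of these genes fell far more often than they rose. Of the 72 genes, 22 (30.6%) fell, 2 (2.78%) rose and 48 missed the threshold, beside 16.4% lowered and 3.54% raised among all genes (limma, Benjamini-Hochberg adjusted over all rows, threshold 0.05). The share that rose was near that of all genes, and both directions together took 33.3% of the members against 20.0% of all genes. The genes that rose were PRDM2 and KDM6A. 20 of the 22 falls were at least 2-fold. Without baseline 4, and likewise without baseline 5, 12 members (16.7%) fell, beside 7.51% and 7.73% of all genes. In 12 of the 24 genes past the test the call held whichever sample was left out. The median log2 change was -0.56 for the members and -0.26 for all genes. In 34 members (47.2%) every dinaciclib sample lay below every baseline sample, beside 30.7% of all genes, and in 4 (5.56%) every one lay above, beside 9.36%.

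The deposited values were linear intensities that had not been brought to a common median. Median intensities of 40.6 to 46.8 in the dinaciclib arrays lay below those of 53.3 to 66.2 in the baseline arrays. Precision is limited by having 3 arrays a group. Samples named with a letter stood apart from the numbered ones by their 18S ribosomal RNA control, at 1155 in dinaciclib F and 736 in baseline E against 8273 to 9061 in the other arrays. From the 4 numbered samples alone, 16 members fell and 1, PRDM2, rose, beside 9.86% and 1.92% of all genes (11.8% both ways). All 16 of those falls were also lower in dinaciclib F than in baseline E (neither of which entered that fit), and so were 1143 of the 1179 genes so called in the whole table. F lay below E in 65.3% of the members and 58.0% of all genes. The members were brighter than the average gene, with a median mean signal of 6.91 against 6.41 log2 units and 13.9% against 25.9% under an intensity of 16 in both groups. The part of brightness in the higher share of calls was not tested, and without the dimmest 40% of rows 26 of 56 members (46.4%) and 35.4% of genes fell, and 4 members (7.14%) and 8.88% of genes rose (44.2% of genes both ways). VIM, CD44, CAV1 and AXL, markers of mesenchymal-like breast lines, had mean baseline intensities between 5114 and 8944. The luminal markers ESR1, PGR and FOXA1 read 26.8, 2.91 and 5.61 at baseline, while GATA3 (350) and ERBB2 (167) were above that range. Leukocyte (PTPRC, CD3D) and endothelial (PECAM1, CDH5) markers read 7.40 to 14.8 after dinaciclib and 3.05 to 33.1 at baseline.

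**Figure D1:**
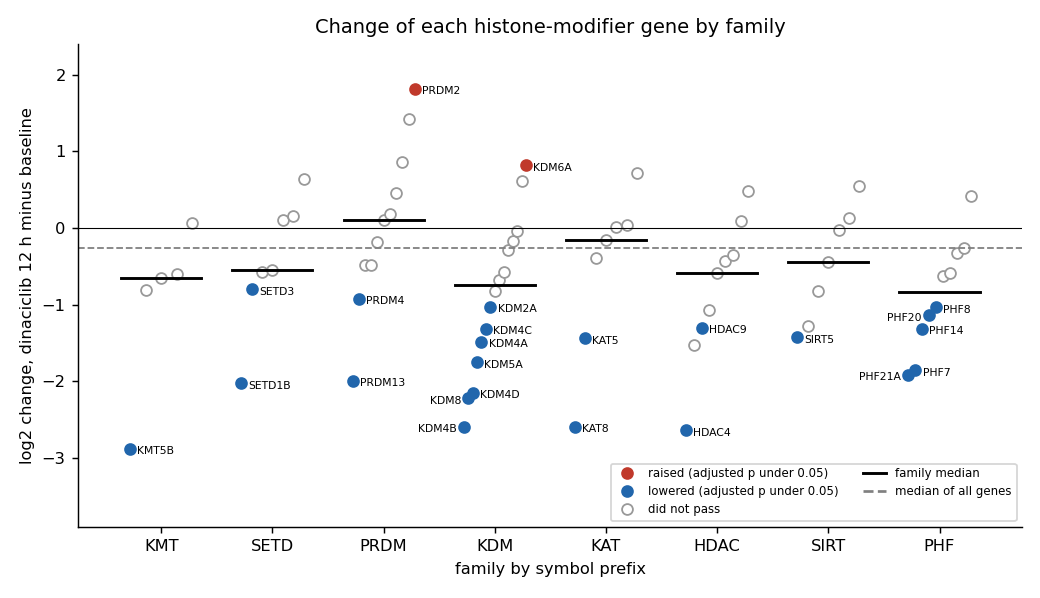
Log2 change (dinaciclib 12 h minus baseline, brightest probe set) of 71 of the 72 genes, in 8 families along the x axis; filled points passed the test, black bars are family medians and the dashed line is the median of all genes (-0.26). KDM and PHF have the lowest medians (-0.75 and -0.83), and PRDM2 and KDM6A are the 2 filled points above 0; the Y-linked KDM5D is not drawn.

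The families differed in how many members fell. Among PHF genes 5 fell, 0 rose and 5 missed the threshold, and among KDM genes 7 fell, 1 rose and 8 missed the threshold, shares lowered of 50.0% and 43.8%. KDM falls stayed at 7 without dinaciclib F and were fewer without any other sample, at 3 (18.8%) without baseline 4 and 4 (25.0%) without baseline 5. PHF falls were fewer whichever sample was left out, at 3 of 10 without dinaciclib 4 or 5 or baseline 4 or 5. From the numbered samples alone 5 KDM genes (31.2%) and 3 of 10 PHF genes fell. The other families had between 14.3% (SIRT) and 28.6% (SETD and KAT) of members lowered, beside 16.4% of all genes. Relative to the median gene, the median change was -0.57 for PHF, -0.49 for KDM, -0.40 for KMT and -0.33 for HDAC genes. It was -0.29 for SETD and -0.19 for SIRT genes, both of which turned above 0 from the numbered samples alone (0.37 and 0.24). KAT (0.10) and PRDM (0.36) lay above the median gene, and 7 of the 11 PRDM genes were under an intensity of 16 in both groups. With 5 to 16 genes a family, these shares are descriptions, and differences between families were not tested.

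Lysine demethylases, the largest family, held the most falls, and all 4 measured KDM4 genes were among them. KDM4 proteins are Jumonji enzymes that remove methyl groups from lysine 9 of histone H3, and KDM4A, KDM4B and KDM4C also act on another lysine of the same tail. The median log2 change of these genes was -1.82. The group was singled out after its values were seen. With the mean of each gene's probe sets, KDM4C and KDM2A did not pass, and KDM6B passed as lowered. In that fit 6 KDM genes fell, 3 of them KDM4 genes. The 250 bases upstream of the start of each KDM4 gene are shown because these relatives fell together, and those of PRDM2 and KDM6A because they are the members that rose. They are RefSeq sequences of the build GRCh38.p14, all on the plus strand, at chr1:43649899-43650148 (KDM4A), chr19:4968863-4969112 (KDM4B), chr9:6757723-6757972 (KDM4C), chr11:94973459-94973708 (KDM4D), chr1:13699938-13700187 (PRDM2) and chrX:44872938-44873187 (KDM6A). Capitals mark TATAAA (the TATA box), CCAAT (the CCAAT box), GGGCGG (the GC box), TGACGTCA (a cAMP response element), CACGTG (an E-box) and CCGGAA (the core bound by ETS factors). Each was searched on both strands, and overlapping matches run together.
KDM4A: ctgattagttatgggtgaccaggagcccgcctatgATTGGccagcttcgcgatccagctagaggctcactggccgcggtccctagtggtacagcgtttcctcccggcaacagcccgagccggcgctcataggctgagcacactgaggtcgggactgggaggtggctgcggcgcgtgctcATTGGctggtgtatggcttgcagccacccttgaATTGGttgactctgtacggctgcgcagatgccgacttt
KDM4B: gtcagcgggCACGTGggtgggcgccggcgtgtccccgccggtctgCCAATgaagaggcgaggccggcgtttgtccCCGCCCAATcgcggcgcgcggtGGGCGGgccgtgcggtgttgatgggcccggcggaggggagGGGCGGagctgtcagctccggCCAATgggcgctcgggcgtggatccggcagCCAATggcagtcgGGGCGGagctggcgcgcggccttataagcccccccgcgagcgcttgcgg
KDM4C: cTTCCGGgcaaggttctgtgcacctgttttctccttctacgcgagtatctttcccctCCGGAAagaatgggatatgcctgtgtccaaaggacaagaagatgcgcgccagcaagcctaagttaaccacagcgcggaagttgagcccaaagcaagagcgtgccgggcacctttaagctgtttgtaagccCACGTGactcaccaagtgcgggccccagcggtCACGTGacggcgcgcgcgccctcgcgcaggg
KDM4D: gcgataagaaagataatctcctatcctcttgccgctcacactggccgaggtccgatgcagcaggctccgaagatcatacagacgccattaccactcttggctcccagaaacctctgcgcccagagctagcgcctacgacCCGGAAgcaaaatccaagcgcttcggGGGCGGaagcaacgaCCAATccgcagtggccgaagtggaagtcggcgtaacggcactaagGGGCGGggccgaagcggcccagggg
PRDM2: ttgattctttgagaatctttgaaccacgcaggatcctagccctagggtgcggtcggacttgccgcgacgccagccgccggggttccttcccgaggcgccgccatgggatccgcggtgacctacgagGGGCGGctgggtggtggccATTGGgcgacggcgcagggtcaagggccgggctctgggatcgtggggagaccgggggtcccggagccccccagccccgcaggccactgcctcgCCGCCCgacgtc
KDM6A: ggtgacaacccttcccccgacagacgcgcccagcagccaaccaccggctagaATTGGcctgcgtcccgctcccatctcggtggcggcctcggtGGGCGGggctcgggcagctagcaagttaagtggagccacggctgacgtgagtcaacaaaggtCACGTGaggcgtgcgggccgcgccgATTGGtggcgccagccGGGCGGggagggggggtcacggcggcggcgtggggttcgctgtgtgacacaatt
No motif was in all 4 windows of the KDM4 genes. KDM4A held 3 CCAAT boxes and no other motif, and KDM4B held 4 CCAAT boxes, 4 GC boxes and 1 E-box, with 1 CCAAT box and 1 GC box overlapping. KDM4C held 2 E-boxes and 2 ETS cores, and KDM4D 1 CCAAT box, 2 GC boxes and 1 ETS core. None of the 6 windows held a TATA box or a cAMP response element. The share of windows holding each motif was counted over the 19 lowered and 43 uncalled members with a sequence, the 9563 genes tested that had one, and all 27305 windows of this length in the RefSeq table. GC boxes were in 57.9% of lowered members, 60.5% of uncalled members, 60.6% of genes tested and 42.3% of all windows. CCAAT boxes were in 31.6% of lowered members, 27.9% of uncalled members, 35.6% of genes tested and 33.0% of all windows. E-boxes were in 21.1% of lowered members, 6.98% of uncalled members, 8.34% of genes tested and 6.49% of all windows. ETS cores were in 21.1% of lowered members, 30.2% of uncalled members, 20.9% of genes tested and 14.8% of all windows. The E-box share of lowered members stands for 4 genes. TATA boxes were in none of the lowered members, 4.65% of uncalled members, 7.93% of genes tested and 11.1% of all windows. For cAMP response elements the shares were none, 2.33%, 2.79% and 1.77% in that order.

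Levels below are log2(intensity + 1) of a gene's brightest probe set, called log2 units. KDM4B read 5.21, 6.07 and 5.27 log2 units in dinaciclib F, 4 and 5, against 7.37, 8.33 and 8.64 in baseline E, 4 and 5 (log2 change -2.59, standard error 0.41; adjusted p = 0.00985 by limma with Benjamini-Hochberg adjustment). All dinaciclib samples lay below all baseline samples, with the widest spread among the baseline arrays. KDM4D read 3.44, 3.20 and 1.73 log2 units in dinaciclib F, 4 and 5, against 4.84, 5.18 and 4.80 in baseline E, 4 and 5 (log2 change -2.15, standard error 0.47; adjusted p = 0.0247 by limma with Benjamini-Hochberg adjustment). Dinaciclib 5 was the lowest of the 6 and the groups did not overlap, but the level after the drug was so near the floor that log2(value + 16) gave a change of -1.02. KDM4A fell with a log2 change of -1.49 (standard error 0.25) and KDM4C with one of -1.32 (standard error 0.23). KDM4A and KDM4B passed whichever sample was left out, KDM4C did not without baseline 4 (adjusted p = 0.0525, limma), and KDM4D did not without baseline E, 4 or 5 (adjusted p = 0.0623 to 0.0865, limma). From the numbered samples alone, KDM4A and KDM4B fell, and KDM4C (adjusted p = 0.0707) and KDM4D (0.0788) did not pass (limma).

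KDM8, a Jumonji protein known as an arginine hydroxylase, also fell. It read 2.20, 3.49 and 3.19 log2 units in dinaciclib F, 4 and 5, against 4.91, 5.50 and 5.13 in baseline E, 4 and 5 (log2 change -2.22, standard error 0.38; adjusted p = 0.0119 by limma with Benjamini-Hochberg adjustment), with no overlap and the lowest level in dinaciclib F. As for KDM4D, the level after the drug was low, and log2(value + 16) gave -1.15. KDM5A, which removes methyl groups from lysine 4 of histone H3, fell (log2 change -1.75, standard error 0.32), and KDM2A, which binds CpG islands through a CXXC zinc finger, fell as well (log2 change -1.03, standard error 0.21). KDM5A did not pass without baseline 4 or 5 (adjusted p = 0.0603 and 0.0523, limma), and KDM2A did not without dinaciclib 4 or 5 or baseline 4 or 5 (adjusted p = 0.0648 to 0.0799, limma).

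KDM6A, the X-linked demethylase that removes the methyl mark written by Polycomb, was the demethylase that rose. It read 8.73, 8.71 and 8.60 log2 units in dinaciclib F, 4 and 5, against 7.86, 8.02 and 7.71 in baseline E, 4 and 5 (log2 change 0.82, standard error 0.18; adjusted p = 0.0264 by limma with Benjamini-Hochberg adjustment). The dinaciclib samples lay close together and above every baseline sample. The call needed most of the arrays: it passed without baseline E, and ended when any other sample was left out (adjusted p = 0.0623 to 0.112, limma) and under centring on spiked controls. KDM1A, the flavin-dependent demethylase that acts on lysine 4 of histone H3, read 9.81, 9.46 and 9.27 log2 units in dinaciclib F, 4 and 5, against 9.00, 9.03 and 8.67 in baseline E, 4 and 5. Its groups did not overlap, but the change did not pass (log2 change 0.61, standard error 0.23; adjusted p = 0.119 by limma with Benjamini-Hochberg adjustment). KDM5B (-0.82, standard error 0.22, adjusted p = 0.0511, limma) lay just outside the threshold, where PHF20 (-1.14, standard error 0.28, adjusted p = 0.0361, limma) was the last member inside it. The remaining KDM genes with values given here, KDM3A, KDM3B, KDM5C, KDM6B and KDM7A, had log2 changes from -0.68 to -0.038 and did not pass, and the Y-linked KDM5D was counted among those not past the test.

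**Figure D2:**
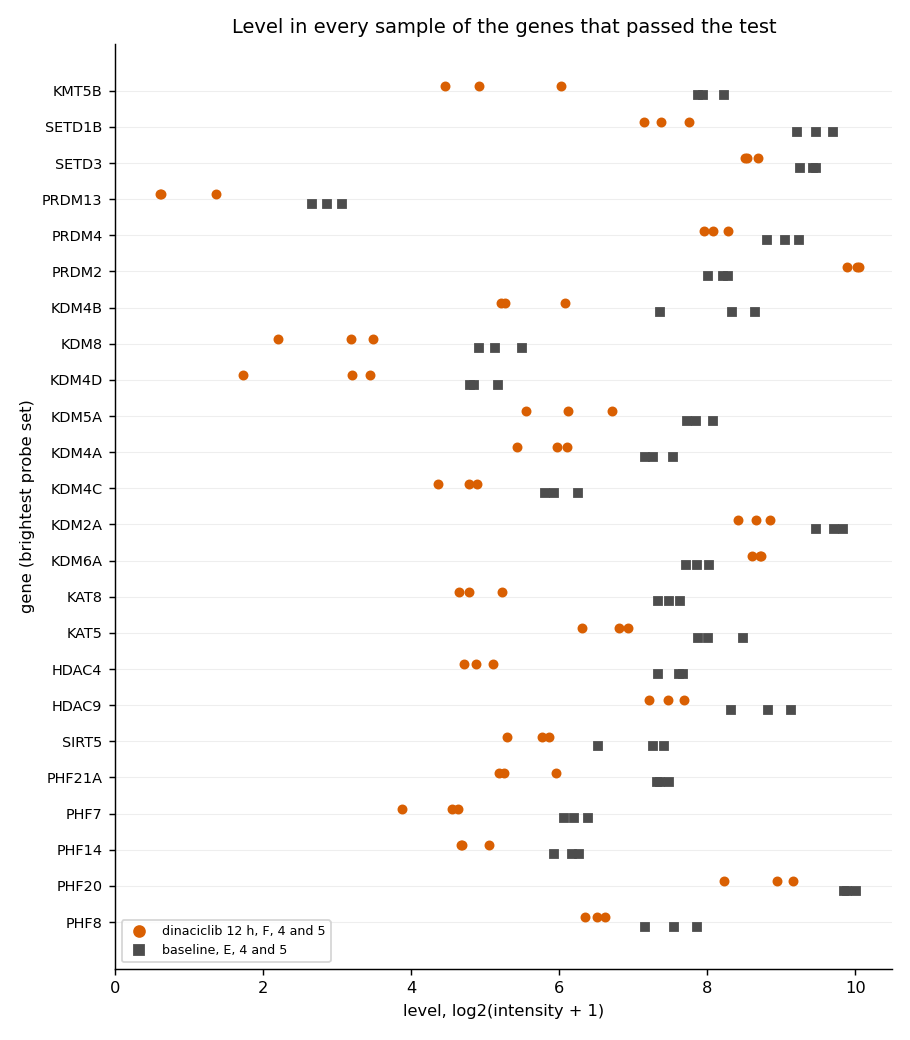
Level (log2(intensity + 1), x axis) of the 24 genes that passed the test, with 1 row per gene in family order, dinaciclib 12 h samples as circles just above each row and baseline samples as squares just below it. In no row do the groups overlap; PRDM2 and KDM6A have the dinaciclib circles to the right.

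Among the methyltransferase families, KMT5B showed the largest fall of any member. The enzyme adds further methyl groups to a lysine of histone H4 that already carries one. KMT5B read 6.02, 4.46 and 4.92 log2 units in dinaciclib F, 4 and 5, against 7.94, 8.22 and 7.88 in baseline E, 4 and 5 (log2 change -2.88, standard error 0.41; adjusted p = 0.00737 by limma with Benjamini-Hochberg adjustment). That is 7.36 times higher in baseline on this scale, and the dinaciclib samples varied more among themselves than the baseline samples did. Of the 5 KMT genes, 1 fell, 0 rose and 4 missed the threshold. KMT2B (-0.82, standard error 0.31), KMT5A (-0.66, standard error 0.29) and KMT2D (-0.61, standard error 0.98) did not pass, and KMT2D varied from 1.61 to 5.51 log2 units among the baseline samples.

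Of the 7 SETD genes, 2 fell, 0 rose and 5 missed the threshold. SETD1B, a catalytic subunit of a COMPASS complex that methylates lysine 4 of histone H3, read 7.38, 7.75 and 7.14 log2 units in dinaciclib F, 4 and 5, against 9.69, 9.46 and 9.20 in baseline E, 4 and 5 (log2 change -2.03, standard error 0.24; adjusted p = 0.00499 by limma with Benjamini-Hochberg adjustment). Its groups were well apart, and it passed whichever sample was left out. SETD3, known as an actin histidine methyltransferase, read 8.68, 8.54 and 8.51 log2 units in dinaciclib F, 4 and 5, against 9.43, 9.24 and 9.46 in baseline E, 4 and 5 (log2 change -0.80, standard error 0.18; adjusted p = 0.0263 by limma with Benjamini-Hochberg adjustment). Its groups did not overlap either, but it missed the threshold whichever of the 6 samples was dropped (adjusted p = 0.0511 to 0.110, limma) and under each of 3 other scalings. SETD2, which trimethylates histone H3 in the bodies of transcribed genes, read 9.74, 9.64 and 9.32 log2 units in dinaciclib F, 4 and 5, against 9.54, 9.52 and 9.34 in baseline E, 4 and 5, overlapping groups with a change of 0.10 (standard error 0.20) that did not pass. SETD1A, SETD5 and SETD6 also did not pass, with log2 changes from -0.57 to 0.16.

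PRDM genes encode zinc finger proteins with a domain related to the SET domain of methyltransferases. Of 11, 2 fell, 1 rose and 8 missed the threshold. PRDM2, also known as RIZ, read 9.89, 10.05 and 10.01 log2 units in dinaciclib F, 4 and 5, against 8.21, 8.28 and 8.01 in baseline E, 4 and 5 (log2 change 1.82, standard error 0.18; adjusted p = 0.00359 by limma with Benjamini-Hochberg adjustment). This 3.52-fold rise, with both groups tight and far apart, passed whichever sample was left out and under every scaling. PRDM4, a zinc finger factor, read 8.28, 8.08 and 7.96 log2 units in dinaciclib F, 4 and 5, against 8.80, 9.24 and 9.05 in baseline E, 4 and 5 (log2 change -0.93, standard error 0.21; adjusted p = 0.0272 by limma with Benjamini-Hochberg adjustment). It fell on both of its probe sets, but did not pass without dinaciclib 4 or 5 or baseline 4 or 5 (adjusted p = 0.0853 to 0.0979, limma). PRDM13, a factor of neural development, read 1.36, 0.60 and 0.62 log2 units in dinaciclib F, 4 and 5, against 2.86, 2.65 and 3.06 in baseline E, 4 and 5 (log2 change -2.00, standard error 0.27; adjusted p = 0.00663 by limma with Benjamini-Hochberg adjustment). The groups did not overlap and dinaciclib F was the highest treated sample. PRDM13 was under an intensity of 16 in both groups, and with log2(value + 16) its change was -0.40 and missed the threshold (adjusted p = 0.0629, limma). PRDM1, a transcriptional repressor that drives plasma cell differentiation, had a change of 1.43 (standard error 0.57), with overlapping groups, and did not pass. The other 7, PRDM8, PRDM9, PRDM10, PRDM11, PRDM12, PRDM14 and PRDM16, had log2 changes from -0.49 to 0.86 and did not pass.

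Of 7 acetyltransferase genes, 2 fell, 0 rose and 5 missed the threshold. Both falls were in the MYST family. KAT8, which acetylates lysine 16 of histone H4, read 5.22, 4.64 and 4.79 log2 units in dinaciclib F, 4 and 5, against 7.33, 7.62 and 7.48 in baseline E, 4 and 5 (log2 change -2.60, standard error 0.22; adjusted p = 0.00325 by limma with Benjamini-Hochberg adjustment). All baseline samples were more than 2 log2 units above all dinaciclib samples, and KAT8 passed whichever sample was left out. KAT5, the TIP60 enzyme of the NuA4 complex and of DNA damage signalling, read 6.93, 6.81 and 6.31 log2 units in dinaciclib F, 4 and 5, against 7.87, 8.48 and 8.01 in baseline E, 4 and 5 (log2 change -1.44, standard error 0.27; adjusted p = 0.0150 by limma with Benjamini-Hochberg adjustment). Its groups did not overlap, and it missed the threshold without baseline 4 or 5 (adjusted p = 0.0528 and 0.0509, limma) and from the numbered samples alone (0.0533, limma). The other MYST-family enzymes KAT6A (0.010, standard error 0.28), KAT6B (0.042, standard error 0.26) and KAT7 (0.72, standard error 0.24) did not pass, though KAT7 lay higher in every dinaciclib sample. KAT7 passed as raised with a covariate for letter or number names (adjusted p = 0.0245, limma) and after quantile normalization (adjusted p = 0.00914, limma). KAT2A (-0.16, standard error 0.18) and KAT2B (-0.39, standard error 0.27), enzymes of SAGA-type complexes, did not pass.

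Of 9 HDAC genes, 2 fell, 0 rose and 7 missed the threshold. Both falls were in class IIa, deacetylases of low catalytic activity that bind MEF2 factors. HDAC4 read 5.11, 4.88 and 4.71 log2 units in dinaciclib F, 4 and 5, against 7.34, 7.61 and 7.68 in baseline E, 4 and 5 (log2 change -2.64, standard error 0.20; adjusted p = 0.00305 by limma with Benjamini-Hochberg adjustment). It was the second most strongly lowered member, with both groups tight and no overlap, and it passed whichever sample was left out. HDAC9 read 7.20, 7.69 and 7.47 log2 units in dinaciclib F, 4 and 5, against 8.31, 9.13 and 8.82 in baseline E, 4 and 5 (log2 change -1.30, standard error 0.27; adjusted p = 0.0226 by limma with Benjamini-Hochberg adjustment). Its groups did not overlap, and it missed the threshold without dinaciclib F or 5 or baseline 4 or 5 (adjusted p = 0.0650 to 0.0785, limma). The other class IIa genes, HDAC5 (-0.43, standard error 0.53) and HDAC7 (-1.52, standard error 0.65), did not pass, and HDAC7 varied from 2.87 to 5.49 log2 units among the dinaciclib samples. HDAC6, a cytoplasmic tubulin deacetylase (-0.59, standard error 0.38), and HDAC11 (-1.07, standard error 0.61) did not pass.

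No class I deacetylase gene passed. HDAC1 read 11.35, 11.24 and 11.07 log2 units in dinaciclib F, 4 and 5, against 11.15, 11.24 and 11.00 in baseline E, 4 and 5 (log2 change 0.089, standard error 0.18; adjusted p = 0.798 by limma with Benjamini-Hochberg adjustment). The 2 groups covered almost the same range. HDAC2 had a log2 change of 0.48 (standard error 0.24) and passed as raised when arrays were centred on their medians (adjusted p = 0.0178, limma), and HDAC3 had one of -0.35 (standard error 0.18), which turned positive under that centring. Of 7 sirtuin genes, 1 fell, 0 rose and 6 missed the threshold. SIRT5, a mitochondrial enzyme that removes succinyl groups, read 5.29, 5.86 and 5.77 log2 units in dinaciclib F, 4 and 5, against 6.53, 7.41 and 7.26 in baseline E, 4 and 5 (log2 change -1.43, standard error 0.31; adjusted p = 0.0238 by limma with Benjamini-Hochberg adjustment). Its groups did not overlap, and it passed without baseline E but not without any other sample (adjusted p = 0.0526 to 0.0834, limma). SIRT1, a nuclear deacetylase, read 8.49, 8.14 and 7.56 log2 units in dinaciclib F, 4 and 5, against 8.73, 9.11 and 8.82 in baseline E, 4 and 5. Every dinaciclib sample was below every baseline sample, but the change did not pass (log2 change -0.83, standard error 0.28; adjusted p = 0.0995 by limma with Benjamini-Hochberg adjustment). The other sirtuins had log2 changes from -1.28 (SIRT4, dim in both groups) to 0.55 (SIRT7) and did not pass.

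Of 10 PHF genes, 5 fell (50.0%, beside 16.4% of all genes), 0 rose and 5 missed the threshold. In 8 (80.0%) every dinaciclib sample lay below every baseline sample, beside 30.7% of all genes. PHF21A, a subunit of the KDM1A and CoREST complex that reads unmethylated lysine 4 of histone H3, read 5.96, 5.25 and 5.19 log2 units in dinaciclib F, 4 and 5, against 7.36, 7.48 and 7.32 in baseline E, 4 and 5 (log2 change -1.92, standard error 0.26; adjusted p = 0.00633 by limma with Benjamini-Hochberg adjustment). Its baseline samples were close together and dinaciclib F was the highest of the treated samples. PHF7, an E3 ubiquitin ligase for histone H2A in mouse spermatids, read 4.64, 4.55 and 3.88 log2 units in dinaciclib F, 4 and 5, against 6.07, 6.38 and 6.19 in baseline E, 4 and 5 (log2 change -1.86, standard error 0.26; adjusted p = 0.00706 by limma with Benjamini-Hochberg adjustment). PHF14 read 4.67, 5.05 and 4.69 log2 units in dinaciclib F, 4 and 5, against 6.17, 6.26 and 5.93 in baseline E, 4 and 5 (log2 change -1.32, standard error 0.21; adjusted p = 0.00953 by limma with Benjamini-Hochberg adjustment). Neither gene had overlapping groups, and PHF7, PHF14 and PHF21A passed whichever sample was left out, but PHF14 did not from the numbered samples alone (adjusted p = 0.0613, limma). PHF20, a subunit of the NSL complex that also holds KAT8, had a change of -1.14 (standard error 0.28), and PHF8, a Jumonji demethylase, one of -1.04 (standard error 0.24). PHF20 passed when dinaciclib F was left out and PHF8 when baseline E was, and neither passed without any other sample (adjusted p = 0.0626 to 0.113 and 0.0611 to 0.0980, limma). PHF2 (-0.63, standard error 0.26), also of the Jumonji family, PHF10 (-0.59, standard error 0.19), a subunit of the PBAF remodelling complex, PHF1 (-0.33, standard error 0.18), a Polycomb-associated reader, and PHF3 (-0.27, standard error 0.26), which binds RNA polymerase II, did not pass, nor did PHF24 (0.42, standard error 0.26).

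Many genes were measured by more than 1 probe set, each a group of short probes for 1 part of the transcript. The 72 genes had 134 probe sets, of which 33 fell and 6 rose when every probe set was tested, beside 14.0% and 3.9% of all probe sets with 1 gene. Of the 14 genes past the test with several probe sets, 6 (KAT5, KDM4A, KDM4B, KDM6A, PRDM2 and PRDM4) had 2 or more that passed in the same direction and 8 had 1. All 3 KAT5 probe sets fell, though each is of a type that holds probes matching other transcripts. KDM4B fell on 3 of 5, with log2 changes of -3.20, -2.59 and -1.85, and of the others 1 was dim, at intensities under 4. PRDM2 rose on 4 of 5, by 0.87 to 1.82. Of these, 1 was dim, at intensities of 3.47 to 5.71 in dinaciclib and 1.15 to 1.23 in baseline samples, and 1 lay near the threshold (adjusted p = 0.0468, limma). These 8, KAT8, KDM2A, KDM4C, KDM5A, PHF7, PHF8, PHF20 and SIRT5, passed on their brightest probe set alone. SIRT5 and PHF20 each had another with a positive log2 change that did not pass (0.66 and 0.78). Apart from these 2 genes, the other probe sets had negative log2 changes (-1.16 to -0.068) that did not pass. No gene had probe sets past the test in opposite directions.

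KMT2A, the MLL1 methyltransferase, differed most among its probe sets. The brightest had intensities of 254, 366 and 349 in dinaciclib F, 4 and 5, against 150, 448 and 424 in baseline E, 4 and 5, a log2 change of 0.063 (standard error 0.46) that did not pass, with baseline E far below baseline 4 and 5. Another probe set fell with a log2 change of -1.62 (standard error 0.25), with intensities of 70.3, 107 and 90.7 in dinaciclib F, 4 and 5, against 223, 323 and 284 in baseline E, 4 and 5. There every dinaciclib sample lay below every baseline sample. A further probe set fell with a log2 change of -1.88 (standard error 0.38), while 1 was higher in every dinaciclib sample, at 1.43 (standard error 0.43), and missed the threshold (adjusted p = 0.0686, limma). The brightest SETD4 probe set had intensities of 209, 174 and 132 in dinaciclib F, 4 and 5, against 81.9, 139 and 112 in baseline E, 4 and 5, with overlapping groups and a change of 0.63 (standard error 0.29) that did not pass. Like those of KAT5, it is of the type that holds probes matching other transcripts. The other SETD4 probe set fell with a log2 change of -1.47 (standard error 0.30), with intensities of 55.5, 31.8 and 29.3 in dinaciclib F, 4 and 5, against 123, 109 and 87.4 in baseline E, 4 and 5, all dinaciclib samples below all baseline samples. SIRT3, a mitochondrial deacetylase, had a change of 0.13 (standard error 0.28) on the brightest probe set, at intensities of 55.7, 51.0 and 88.8 in dinaciclib F, 4 and 5, against 52.0, 52.3 and 70.0 in baseline E, 4 and 5, where the groups overlapped. It fell with a log2 change of -1.09 (standard error 0.29) on a dimmer one, at 23.7, 26.9 and 28.3 in dinaciclib F, 4 and 5, against 38.2, 69.9 and 69.1 in baseline E, 4 and 5, where they did not. KDM5B, which removes methyl groups from lysine 4 of histone H3, had intensities of 196, 218 and 154 in dinaciclib F, 4 and 5, against 280, 367 and 351 in baseline E, 4 and 5 on the brightest probe set, without overlap. It fell with a log2 change of -0.91 (standard error 0.22) on another of similar brightness, which is of the type that holds probes matching other transcripts. These 4 genes, counted as uncalled, passed only on probe sets other than their brightest.

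**Figure D3:**
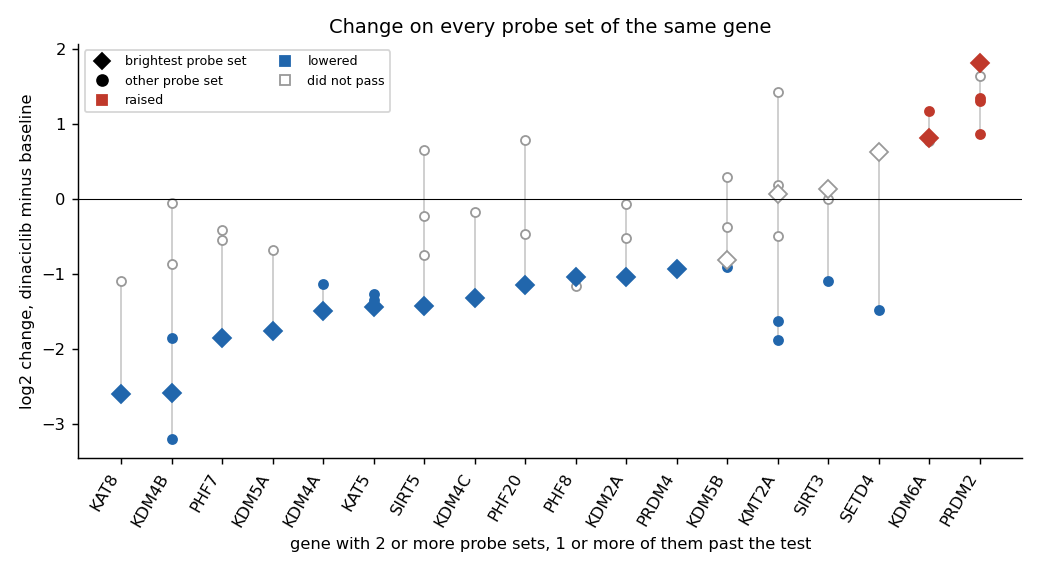
Log2 change (dinaciclib minus baseline, y axis) of every probe set of the genes with 2 or more probe sets of which at least 1 passed the test, with diamonds for the brightest and filled symbols for those past the test. Probe sets of PRDM2, KAT5 and PRDM4 lie together on 1 side of 0, whereas those of KMT2A run from -1.88 to 1.43.

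Other genes that act with these enzymes were taken from 7 lists, with 97 of 125 genes measured, of which 32 fell, 4 rose and 61 did not pass. Of these 36 calls, 14 held whichever sample was left out and 15 held in at most 1 of the 6 such fits. Of the 97 genes, 12 fell without baseline 4 or 5, beside 7.51% and 7.73% of all genes. Falls numbered 16 without dinaciclib 4 or 5 (beside 10.6% and 9.76% of all genes), 20 without dinaciclib F (12.6%) and 25 without baseline E (15.4%). Subunits of the KMT2 and SETD1 complexes fell in 5 of 8 measured cases, with 0 rises and a median log2 change of -1.16. The largest falls were those of PAGR1 (-3.52, standard error 0.60) and NCOA6 (-2.63, standard error 0.28), which join KMT2C and KMT2D complexes, and MEN1, ASH2L and PAXIP1 followed. With log2(value + 16) the change of PAGR1 was -2.71. Without baseline 4 or 5, 3 of the 8 fell (PAGR1, NCOA6 and MEN1), and 2 did from the numbered samples alone. Polycomb genes fell in 5 of 12, led by CBX6 (-1.77, standard error 0.43) and the ubiquitin ligase RING1 (-1.67, standard error 0.20), with 0 rises. RING1 held in all 6 fits, and CBX6 was lost without dinaciclib F or 5 or baseline 4 or 5. The 5 Polycomb falls became 2 when any 1 of those 4 samples was left out and 3 without dinaciclib 4. Partners of HDAC enzymes fell in 6 of 17, led by the scaffold SIN3B (-1.86, standard error 0.24) and TBL1X (-1.67, standard error 0.24), both of which held in all 6 fits, with 0 rises. Without dinaciclib 5 or baseline 4 or 5, 3 of the 17 fell.

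Partners of KAT enzymes fell in 6 of 22 cases and 1 rose. TADA2A, a SAGA-type adaptor (-2.59, standard error 0.35), and JADE2 (-2.11, standard error 0.40) fell, and MSL2, a ubiquitin ligase in the MSL complex with KAT8, rose (2.08, standard error 0.25). MSL2 had 10.18 ± 0.25 log2 units in dinaciclib and 8.11 ± 0.33 in baseline samples (SD, n = 3 each), on its only probe set. TADA2A and MSL2 held in all 6 fits, and JADE2 in 2, being lost without dinaciclib 4 or any baseline sample. The level of TADA2A after the drug was low (mean 3.63 log2 units), and log2(value + 16) gave -1.69. The falls in this list numbered 3 without dinaciclib F, 2 without dinaciclib 5 and 1 without dinaciclib 4 or baseline 4 or 5. Among acetyltransferases under other symbols, 4 of 9 fell, led by TAF1 (-1.51, standard error 0.31) and NCOA1 (-1.29, standard error 0.33), and GTF3C4, a subunit of a general factor for RNA polymerase III, rose (3.04, standard error 0.21), the largest rise among the partners and held in all 6 fits. TAF1 held in 2 fits (without dinaciclib F or baseline E) and NCOA1 in 1 (without dinaciclib 5), and the change of TAF1 was -1.02 with log2(value + 16). No acetyltransferase of this list fell without dinaciclib 4, baseline 4 or baseline 5, 1 did without dinaciclib F or 5, and 2 did without baseline E. Chosen after their values were seen, the paralogues CREBBP (0.37, standard error 0.20) and EP300 (-0.21, standard error 0.22) did not pass. Among methyltransferases under other symbols, 4 of 22 fell, led by NSD1 (-1.90, standard error 0.52) and NSD2 (-1.68, standard error 0.19), SETDB1 rose (1.28, standard error 0.31) by its brightest probe set and fell by its other one, and the Polycomb enzyme EZH2 (0.20, standard error 0.19), likewise chosen, did not pass. NSD2 held in all 6 fits. NSD1 (adjusted p = 0.0497, limma) held in 1, without dinaciclib F, and its change was -1.09 with log2(value + 16). SETDB1 held in 1, without baseline 4. Falls in this list numbered 2 without dinaciclib 4 or 5 and 1 without baseline 4 or 5. Of 7 other Jumonji genes, JMJD4 (-4.10, standard error 0.29, and -2.28 with log2(value + 16)) and RIOX1 (-2.52, standard error 0.28) fell, and JARID2 (1.22, standard error 0.23), a Polycomb cofactor without demethylase activity, rose on both of its probe sets. JARID2 was lost without dinaciclib 4 or 5 or baseline 5, and JMJD4 and RIOX1 held in all 6 fits. Read against 16.4% of all genes lowered, the share lowered was 62.5% for the KMT2 partners, 18.2% for the other methyltransferases and 33.0% over the 7 lists. These partners were brighter than the average gene, with a median mean signal of 8.39 against 6.41 log2 units. Under an intensity of 16 in both groups were 2.06% of them and 25.9% of all genes. Without the dimmest 40% of rows 35.4% of all genes fell, and the part of brightness in the share of partners lowered was not tested.

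How the arrays were scaled moved the rises more than the falls. After quantile normalization 20 members fell and 4 rose, beside 13.4% and 8.89% of all genes (22.3% both ways). With arrays centred on their medians 19 fell and 7 rose, beside 10.9% and 16.3% (27.2% both ways). With arrays centred on spiked controls 19 fell and 1, PRDM2, rose, beside 13.3% and 2.02% (15.3% both ways). All of the falls under those 3 scalings were among the 22 as deposited. The 7 KDM falls, the 4 KDM4 genes among them, were called under each of these scalings. Median centring moved the median of all genes to 0.19, quantile normalization to -0.018 and the spiked controls to -0.34. KAT7 and SETD4 were added to the rises by both of the first scalings, and HDAC2, KDM1A and PRDM14 by median centring.

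**Figure D4:**
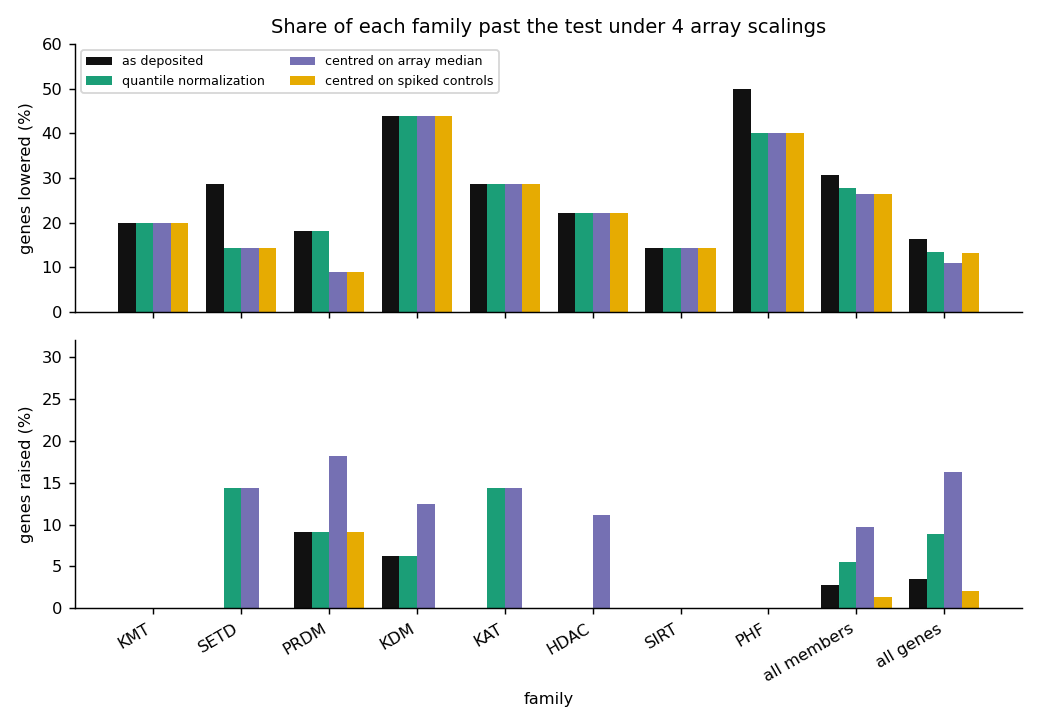
Percent of genes lowered (upper panel) and raised (lower panel) past the test, by family along the x axis, with 1 bar for each of 4 array scalings. The KDM bars for lowered genes are at 43.8% under all 4 scalings (though at 18.8% as deposited without baseline 4, not drawn), while the share of all genes raised runs from 2.02% to 16.3%.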

How the data were processed

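The authors deposited 1 linear intensity for each probe set on each array, judged from the range of the values. Their summarization and scaling are not given in the sources used here. Probe sets were named from the platform annotation, and gene identifiers were matched to RefSeq (GRCh38.p14), used for symbols and promoters (19052 of 19064 probe sets with 1 gene matched, and 0 symbols changed). Of 22277 probe sets, 62 controls were left out. A gene's value is that of its brightest probe set by mean log2 value over the 6 samples, and 3151 probe sets without a single gene entered the test unnamed, 15114 rows in all.

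Values were tested as log2(value + 1), without normalization or filter, with lmFit and eBayes of limma 3.58.1 (R 4.3.3), group as the only term, and Benjamini-Hochberg adjustment over all rows at 0.05. Fold changes on this scale understate changes of dim genes. On data simulated from these means and spreads, with 2815 of 15114 rows changed, 47.2% of log2 changes of 1 and 81.8% of 2 were recovered, with 4.69% of calls false. The simulated rows varied independently, with changes of random sign and no difference between whole arrays or between letter and number names. These shares therefore do not measure the error rate in the real arrays. Members, lists and rules were chosen with earlier results of these data known. Per-sample values are given for the 3 largest rises and falls past the test in each family, for genes whose probe sets differ in their call and for well-known enzymes, and in each list of partners the 2 largest each way are named. Other genes named with a value were chosen after their values were seen, to account for all members. Alternatives were 3 scalings, another added value (16), a filter on dim rows, other uses of probe sets, a variance trend, a replicate block, a letter or number covariate, the numbered samples alone and each sample left out. Promoter sequences were found for 64 of the 72 genes. Python 3.11.15 and matplotlib 3.10.9 drew the figures.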

Additional observations from a re-analysis of the deposited data

How the results depend on the processing

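Lowered members numbered 12 to 19 (12 without baseline 4 and 12 without baseline 5) and raised members 1 to 3 with 1 sample left out. The 2 rises became 4 after quantile normalization, 7 with median centring, 1 with spiked controls and 1 from the numbered samples. They numbered 4 with log2(value + 16) (5.56%, beside 5.39% of all genes), 4 without dim genes and 4 with the variance trend (5.56%, beside 5.64%). With the covariate for letter or number names there were 5 (6.94%, beside 5.01%). The falls stayed within 1.5 times of 22 except without baseline 4 or 5 and with the replicate block. With the replicate block, in which E and F each have a level of their own and drop out, 0 members fell and 0 rose (limma, 1 residual degree of freedom), 36 had an unadjusted p under 0.05, and 0 of all genes were called. Across genes, deviations from the group means correlated at 0.089 for the samples named 4, 0.082 for those named 5 and 0.14 for F and E, and each sample correlated best with its own number or letter, a hint from the data and not from the design.

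Medians below are relative to the median gene. That of all members moved to -0.16 after quantile normalization and -0.21 with the mean of probe sets, and was -0.33 to -0.22 with 1 sample left out. After quantile normalization KDM (-0.28), HDAC (-0.12), SETD (-0.034) and KAT (0.29) moved and SIRT turned (0.028). With the mean of probe sets KDM was -0.31 and HDAC -0.48. Without dim genes SETD (0.077), SIRT (0.067) and PRDM (-0.18) turned. From the numbered samples, and with the replicate block, which gives the same values, SETD (0.37) and SIRT (0.24) turned, and HDAC was -0.55 and PHF -0.76. With 1 sample left out KMT was -0.74 to -0.28, KAT 0.025 to 0.16, SETD -0.34 to 0.26, PRDM 0.029 to 0.56, HDAC -0.49 to -0.23 and SIRT -0.33 to 0.20. The causes were not tested.

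Of the 35 single genes followed, 2 (PHF8 and SETD3) lost their call after quantile normalization and 3 (PHF20, PRDM4 and SETD3) with median centring. With spiked controls 4 did (KDM6A, PHF20, PRDM4 and SETD3), 5 with the mean of probe sets and 7 from the numbered samples. KDM5B, SIRT1 and PHF10 passed as lowered with log2(value + 16), without dim genes and with the variance trend. In each of those fits KAT7 and KDM1A passed as raised. None that had passed changed sign. Among those that had not, KMT2A turned with spiked controls (-0.022), the mean of probe sets (-0.39) and the numbered samples, with or without the replicate block (-0.29), and was -0.45 to 0.34 with 1 sample left out. SETD4 (-0.42) and SIRT3 (-0.32) turned with the mean of probe sets, and SIRT3 was -0.11 to 0.29 with 1 sample left out. HDAC3 turned with median centring (0.10), and KAT2A with that and quantile normalization (0.30 and 0.27). Dim genes, 10 of 72, had changes whose size depends on the value added before the logarithm.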
